A study of Mus musculus with 8 samples.

Results

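Transcript levels were compared between an AML12 line transfected with v-erbA and the AML12 cells it was made from, in the absence of retinoic acid (RA). The comparison takes the untreated arrays of the series, 4 of 8 in all: AML12 control at 3 h, AML12 control at 24 h, v-erbA-transfected AML12 control at 3 h and v-erbA-transfected AML12 control at 24 h, with 1 array for each. The arrays were paired by time and every gene was described by its log2 ratio, v-erbA line over AML12, in each pair. The remaining 4 arrays carry the same 2 lines at the same 2 times with 1 µM RA and give a second look at the ratios; they also enter the choice of probe set and the fits over 8 arrays (line by time, and those that leave out 1 array). Line, treatment and time were read from the sample titles; 3 of the 4 descriptions that go with a 24 h title say 3 h instead, that of the v-erbA control among them, and here the title decided. Nothing in the labels says that the arrays came from separate cultures, so the p-values speak of the scatter of these arrays alone, which may be technical. The labels give 1 transfected line and name no empty-vector line, so the difference belongs to the line, and v-erbA cannot be told apart from transfection and clone.

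AML12 is a hepatocyte line established from mice carrying a human transforming growth factor alpha transgene, and it keeps the synthesis of albumin and other plasma proteins. v-erbA is an oncoprotein of avian erythroblastosis virus, a mutated form of thyroid hormone receptor alpha that has lost the response to hormone and acts as a constitutive repressor. Nuclear receptors of this family sit on DNA as dimers with retinoid X receptors, at pairs of the sequence AGGTCA or close relatives of it, and in erythroid cells v-erbA is known for silencing carbonic anhydrase II and the band 3 anion exchanger. Expression of v-erbA in the transfected line was not analysed here.

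Expression was read as 1 signal intensity per probe set. Of 18192 genes, 11586 had a signal above the pooled median of 73.5 units on at least 2 of the 4 untreated arrays and were tested, and 6606 did not. Changes are differences of log2(signal + 19.9), v-erbA line minus AML12, with the standard error of a limma fit of line and time; a gene was called at a Benjamini-Hochberg adjusted p under 0.05. Adding the offset understates the change of dim genes. Where a gene lay under the pooled median on both arrays of a line, the fold is a lower bound, taken from the mean of the brighter line over that median. The hepatocyte identity of both lines was visible in the markers: 8 of 9 hepatocyte markers with a probe set lay above the pooled median on all 4 arrays, and their summed signal was 31830 and 43130 units in AML12 and 27550 and 32730 units in the v-erbA line (3 h and 24 h). The endothelial markers Pecam1, Cdh5, Tek and Vwf and the fibroblast receptors Pdgfra and Pdgfrb lay under the pooled median on all 4 arrays. So did the macrophage genes Cd68, Lyz2 and Clec4f and the blood genes Hba-a1 and Ptprc. Other members of those lists lay above it throughout, 3 of 7 macrophage, 3 of 9 stellate and fibroblast, 1 of 6 endothelial, 5 of 6 biliary and progenitor and 0 of 3 erythroid and blood markers with a probe set. In the same order of arrays, summed signals of the macrophage markers were 3448 and 4658 against 2206 and 2501 units, and of the stellate and fibroblast markers 7304 and 7658 against 5361 and 6859. The endothelial sums were 164 and 245 against 387 and 354 units, the biliary sums 5515 and 5186 against 3704 and 3487, and the erythroid and blood sums 79.3 and 93.8 against 126 and 141. The part of these markers in the results was not tested. In bulk RNA of this kind, fewer cells of a type and less RNA per cell cannot be told apart.

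The 2 lines differed in a large share of their transcripts, mostly by small amounts. limma called 4432 of the 11586 genes, which is 38.3% of those tested; 2112 were higher in the v-erbA line (18.2%) and 2320 were lower (20%). Of the calls, 2595 were under 1.41-fold and 1422 lay between 1.41-fold and 2-fold. Only 415 genes, 3.58% of those tested, were called and at least 2-fold apart, 149 of them higher (1.29%) and 266 lower (2.30%), and 83 were at least 4-fold apart, 31 higher and 52 lower. The median change over all genes tested was 0.01, with 1st and 99th percentiles of -1.51 and 1.17. With 4 arrays and a term for time, 1 residual degree of freedom is left beside 55.6 prior degrees of freedom, so the standard errors come almost wholly from genes of similar brightness. The count fell to 2730 without the mean-variance trend, to 99 without the time term, and, in fits over the 8 arrays, to 2226 without the v-erbA control of 3 h and 2054 without that of 24 h. Of the 415 genes at least 2-fold apart, 390 to 412 were still called in the same direction whichever untreated array was left out.

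The 3 h pair and the 24 h pair gave much the same picture. Among genes with 1 of the 2 arrays above the pooled median, 159 (1.39%) were at least 2-fold higher and 247 (2.16%) at least 2-fold lower in the v-erbA line at 3 h, against 224 (1.91%) and 388 (3.30%) at 24 h. Within the genes tested, 116 were at least 2-fold higher at both times, 80.0% of those at 3 h and 56.0% of those at 24 h; 182 were lower at both times, 79.5% and 52.8%, and 0 were 2-fold apart in opposite directions. Across genes, which are not independent replicates, the ratios of the pairs correlated with r = 0.814, and the median gap between a gene's 2 ratios was 0.15. The 415 genes called at 2-fold or more were chosen by the mean of these pairs, which favours agreement between them. Of the 415, 413 had the same sign in both pairs and 298 were at least 2-fold apart in both. In the RA-treated arrays of the same lines, which the test did not use, 413 of the 415 had that sign at both times and 276 were at least 2-fold apart at both.

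**Figure D1:**
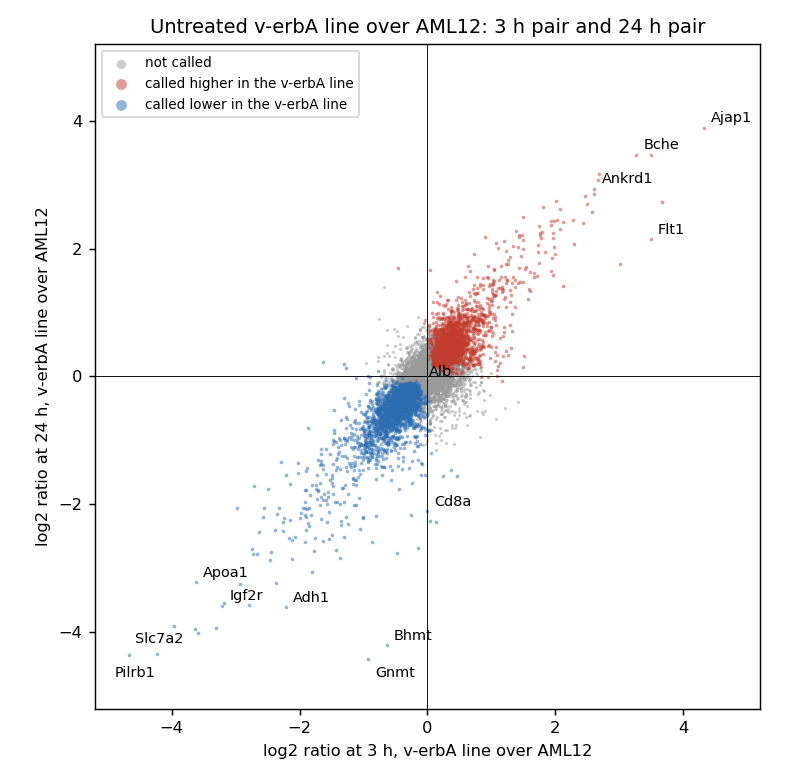
Log2 ratio of the v-erbA line over AML12 at 24 h (y axis) against the ratio at 3 h (x axis), 1 point per gene tested, coloured by the call of the fit over both pairs. Most called genes lie along the diagonal, Ajap1 at the top right and Pilrb1 at the bottom left, while Gnmt, Bhmt and Cd8a lie far from it, with a lower ratio at 24 h than at 3 h.

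The largest decreases were spread over receptors, transporters and hepatocyte products. Pilrb1, an activating immunoglobulin-like receptor, gave 3311 and 4023 units in AML12 (3 h and 24 h) and 111 and 176 units in the v-erbA line, and fell by 4.52 ± 0.10. Slc7a2, a transporter of arginine and other cationic amino acids, went from 2005 and 2462 to 87.5 and 103 units and fell by 4.29 ± 0.11. Kyat3, a kynurenine aminotransferase, went from 2849 and 3510 to 211 and 209 units, a fall by 3.79 ± 0.09. Both arrays of the v-erbA line lay far under both of AML12 for each of these genes. Klhl13, an X-linked adaptor of a ubiquitin ligase, was at 997 and 1103 units in AML12 and under the pooled median in the v-erbA line, at 45.5 and 54.8, and so was at least 11.4-fold lower. Igf2r, which carries lysosomal enzymes and clears insulin-like growth factor 2, dropped from 603 and 689 to 47.3 and 39.1 units, at least 7.11-fold. Cyp4b1, a cytochrome P450, dropped from 444 and 748 to 27.0 and 30.4, at least 6.39-fold. Crtap, a partner of collagen prolyl hydroxylation, dropped from 323 and 316 to 17.9 and 8.86, at least 3.63-fold, and Rnf144b, a ubiquitin ligase, from 202 and 317 to 23 and 16, at least 2.93-fold. Tmem45a, a transmembrane protein, was also lower, at 1039 and 1564 units in AML12 against 139 and 210 in the v-erbA line.

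Several products of liver cells, most of them secreted or at the surface, stood in the same group of the 15 largest decreases. Lrg1, a leucine-rich plasma glycoprotein, gave 956 and 2494 units in AML12 and 60.9 and 136 in the v-erbA line. Apoa1, the core apolipoprotein of HDL, gave 2682 and 7093 against 200 and 742 units. Adh1, the main liver alcohol dehydrogenase, gave 387 and 1169 against 68.0 and 77.2 units. In all 3 the signal of AML12 was higher at 24 h than at 3 h, and the v-erbA line lay below the lower of the AML12 values at both times. Hpn, a hepatocyte serine protease of the cell surface, was at least 3.67-fold lower (226 and 459 units against 15.7 and 20.3), and Itih4, an inter-alpha-trypsin inhibitor chain, at least 4.15-fold lower (226 and 591 against 12.5 and 44.2). Azgp1, a zinc-binding plasma glycoprotein, was at 852 and 1852 units in AML12 and at 117 and 253 in the v-erbA line.

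Among the 15 largest increases, 9 genes were under the pooled median on both AML12 arrays and above it on both arrays of the v-erbA line. Ajap1, a junction-associated membrane protein, gave 6.14 and 0.275 units in AML12 and 502 and 280 in the v-erbA line, at least 4.23-fold higher; its other probe sets, all dim, did not show the change (-0.01 and -0.14). Ptprm, a receptor tyrosine phosphatase that mediates homophilic adhesion, gave 12.7 and 21.9 against 347 and 440 units, at least 4.40-fold. Hoxb13, a posterior homeobox factor, was at 29.5 and 21.5 against 254 and 274 units, at least 3.04-fold. Evl, an actin regulator of the Ena/VASP family, was at 67.6 and 36.7 against 333 and 361 units, at least 3.93-fold. Flt1, a receptor for vascular endothelial growth factor, was at 2.09 and 12.5 against 228 and 124 units, at least 2.02-fold. Of the other endothelial markers, Pecam1, Cdh5, Tek and Vwf lay under the pooled median on all 4 arrays and Kdr above it on all 4. Rasl10b, a small GTPase, was at least 2.50-fold higher, Nat8f2 at least 2.02-fold, Nts, the neurotensin precursor, at least 1.88-fold, and 1700048O20Rik at least 1.62-fold. The other 2 probe sets of Nat8f2 gave -0.13 and -0.07. Those of Flt1, all dim, gave 0.29, 0.49 and 0.32, and that of 1700048O20Rik, also dim, gave -0.48.

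The remaining increases started from a measurable level. Bche, butyrylcholinesterase, rose from 65.7 and 88.3 to 804 and 1180 units, by 3.37 ± 0.13. Ankrd1, a nuclear ankyrin repeat protein induced through YAP and serum response factors, rose from 386 and 319 to 2461 and 2574 units, by 2.77 ± 0.09. Armcx3, an X-linked mitochondrial armadillo protein, rose from 117 and 104 to 819 and 872 units. Prss23, a secreted serine protease, rose from 130 and 74.2 to 946 and 830. Qpct, which forms N-terminal pyroglutamate, was at 71.5 and 105 against 527 and 724 units. Plac8 was at 650 and 595 against 3583 and 3226 units. In each of these 6 genes the lower v-erbA array was more than 4-fold above the higher AML12 array. Of the 30 genes with the largest changes, 14 have other probe sets, 27 in all. Of these, 16 lay above the pooled median on at least 2 arrays; 15 had the sign of the gene and 11 were at least 2-fold apart. Slc7a2 had the widest spread, with -3.44, -0.94 and -0.09 on its other probe sets, whereas the 3 further probe sets of Apoa1 gave -3.39, -3.47 and -3.70. Pilrb1 has a close paralogue, and its probe set may not tell the copies apart.

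**Figure D2:**
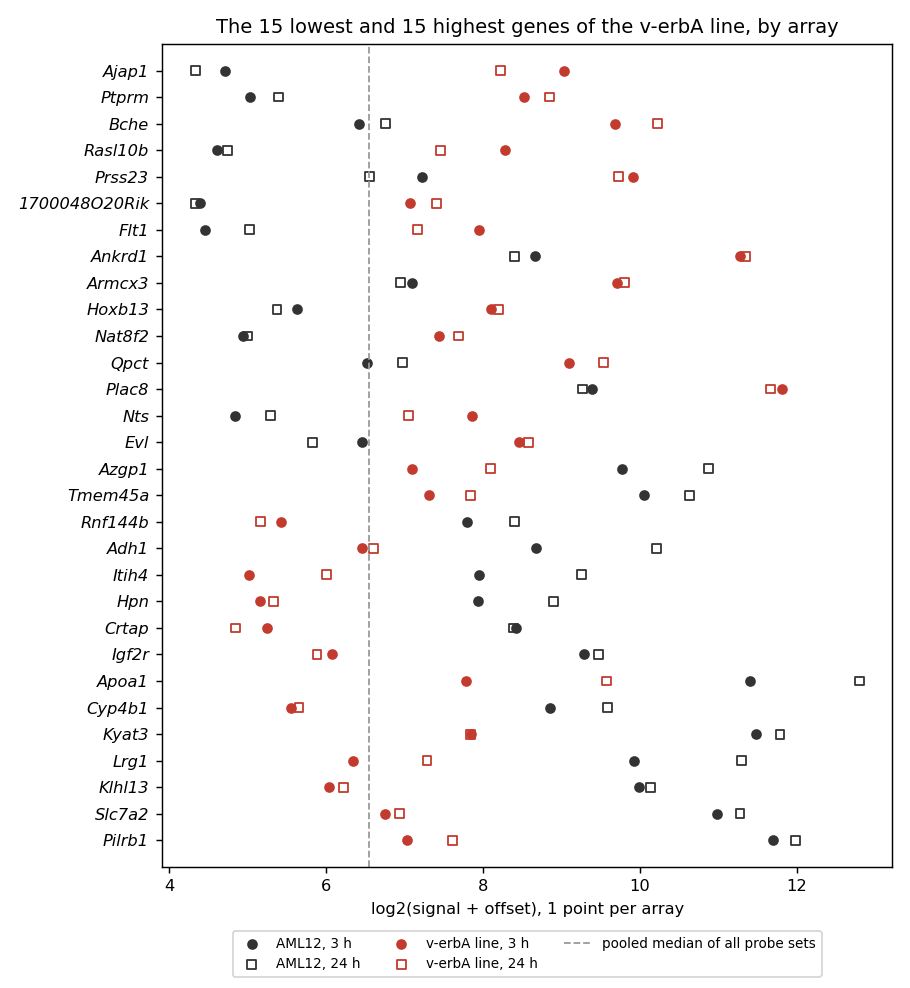
Signals of the 30 genes with the largest called changes on the 4 untreated arrays, as log2(signal + offset) on the x axis, with circles for 3 h, squares for 24 h, dark symbols for AML12 and red symbols for the v-erbA line. The dashed line is the pooled median. The 15 genes at the top lie to the right in the v-erbA line and the 15 at the bottom in AML12, with no overlap between lines. The genes were chosen for large changes on these same arrays, which favours that separation.

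Because v-erbA belongs to a receptor family that reads AGGTCA, the promoters of the tested genes were searched for that word on both strands, over 250 bases before and 50 after the start in RefSeq on GRCm38.p6. It was present in 16.3% of all 32851 promoters, and at 15.4% of the 9421 tested genes with a promoter (1455). It was present at 15% of the genes called at least 2-fold higher (17 of 113). Of those called at least 2-fold lower, 22% held it (47 of 214). Among all calls the shares were 14.3% of the higher genes (246 of 1726) and 16.7% of the lower genes (313 of 1876). The direct repeat with 4 bases between the words, the classical thyroid hormone element, was found as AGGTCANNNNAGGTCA at 0 of the 9421 genes, and the repeat with 1 base between them, AGGTCANAGGTCA, at 4. A match describes letters and is not a measured binding site, and relatives of the word were not searched. Of the 25 genes with the largest changes that have a promoter in the table, 5 held the word, Prss23, Evl, Itih4, Igf2r and Klhl13. The 250 bases before the start are shown for the 2 lower genes that carry it upstream, with the word in capitals, 5′ to 3′ on the strand of the gene. In Itih4 (chr14:30886226-30886475, plus strand) it begins 108 bases before the start, and in Igf2r (chr17:12769707-12769956, minus strand) 11 bases before it.
Itih4: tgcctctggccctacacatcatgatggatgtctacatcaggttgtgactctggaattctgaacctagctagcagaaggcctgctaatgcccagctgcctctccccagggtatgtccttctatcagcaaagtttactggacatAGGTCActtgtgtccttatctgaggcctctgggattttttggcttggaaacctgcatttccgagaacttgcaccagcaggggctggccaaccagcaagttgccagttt
Igf2r: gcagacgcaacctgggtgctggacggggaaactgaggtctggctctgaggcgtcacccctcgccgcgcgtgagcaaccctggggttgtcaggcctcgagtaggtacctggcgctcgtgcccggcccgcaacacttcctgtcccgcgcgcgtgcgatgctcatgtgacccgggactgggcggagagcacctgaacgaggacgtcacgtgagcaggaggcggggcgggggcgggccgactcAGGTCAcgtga

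Of 8 thyroid hormone and retinoid receptors, 5 could be tested, and 1 was called higher and 1 lower. Thra, the cellular counterpart of v-erbA, was at 219 and 249 units in AML12 and 271 and 327 in the v-erbA line, a rise by 0.33 ± 0.13 that just passed (adjusted p = 0.045, limma) and did not pass without the mean-variance trend (0.063). That call was also lost when chromosome medians were removed (0.22) and in 3 of the 4 fits that left out 1 array, and the other probe sets of Thra gave -0.11 and 0.02. Rxra, the retinoid X receptor with which thyroid hormone and RA receptors pair, fell from 494 and 608 to 238 and 278 units, by 1.04 ± 0.12. This probe set was the brightest of the gene, and its other probe sets gave -0.23 and 0.02. Thrb, Rara and Rarb lay under the pooled median on all 4 arrays. Counts in lists here and below are of the members tested and are read against the share over all genes tested, 18.2% higher and 20% lower with a median of 0.01. Of 18 thyroid hormone responsive genes tested (28 in the list), 3 rose and 6 fell, with a median of -0.13 (3 h -0.07, 24 h -0.12). Serpina7, which encodes the thyroxine-binding globulin of plasma, rose from 69.5 and 82.5 to 328 and 437 units. Slc16a10, a transporter of aromatic amino acids and thyroid hormone, fell from 235 and 267 to 71.0 and 78.7 units. Klf9, a direct thyroid hormone target in many cells, gave 0.13 ± 0.06 on its brightest probe set. It was not called (adjusted p = 0.076, limma), but it passed in the 8-array fit (0.035). With chromosome medians removed the change was -0.05. The 5 other probe sets of Klf9 above the pooled median on at least 2 arrays gave 0.18 to 0.47, without that removal. With 1 array left out, 1 to 4 of the thyroid hormone list rose and 4 or 5 fell. Dio1, the liver deiodinase, was too dim to be tested.

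The erythroid genes for which v-erbA is best known could hardly be read in this cell type. Car2, carbonic anhydrase II, fell from 167 and 137 to 86.7 and 104 units, by 0.57 ± 0.17. Slc4a1, the band 3 anion exchanger, and Alas2, the erythroid haem enzyme, were under the filter, as was each of the 11 erythroid and blood cell markers with a probe set. Among 22 other nuclear receptors tested, 5 rose and 5 fell, close to the share over all genes. Nr0b2, the repressor SHP, was at 108 and 181 units in AML12 and 23.6 and 34.4 in the v-erbA line, at least 1.72-fold lower. Pparg, which is low in normal hepatocytes, rose from 99.8 and 68.7 to 215 and 159 units. Of 27 coregulators, 4 rose and 3 fell. Hdac5, a class II histone deacetylase, rose from 213 and 338 to 467 and 662 units. Ncoa1, a coactivator, rose from 174 and 174 to 307 and 378. Those that fell were Ppargc1b, Hdac4 and Hdac1, with -0.55, -0.41 and -0.34. Of 15 retinoid genes tested, 3 rose and 5 fell. Dhrs3 and Rdh10, which reduce retinal and oxidise retinol, rose by 0.53 ± 0.09 and 0.59 ± 0.13. The largest falls were in Rai14, Gprc5a and Rbp4, with -0.75, -0.48 and -0.40. With 1 array left out, 1 to 6 of the other nuclear receptors fell and 3 or 4 rose, 3 to 8 coregulators rose and 1 or 2 fell, and 1 to 5 retinoid genes fell and 2 or 3 rose.

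The change was then followed through 59 gene lists that together name 1485 genes, 1364 of them on the array and 1031 tested. Of the 56 lists with at least 2 members tested, 24 had a median of at least 0.2 in size. All 24 kept its sign after quantile normalization, with either other offset, with the mean of the probe sets and with chromosome medians removed. They also kept it in each fit that left out 1 untreated array, although counts in the fits without a v-erbA array were mostly lower, as for all genes. The size moved with the AML12 control used: without that of 24 h the medians of the plasma protein, cytochrome P450, fatty acid oxidation and YAP target lists were -0.19, -0.17, -0.25 and 0.08, and without the AML12 control of 3 h they were -0.61, -0.62, -0.50 and 0.37.

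**Figure D3:**
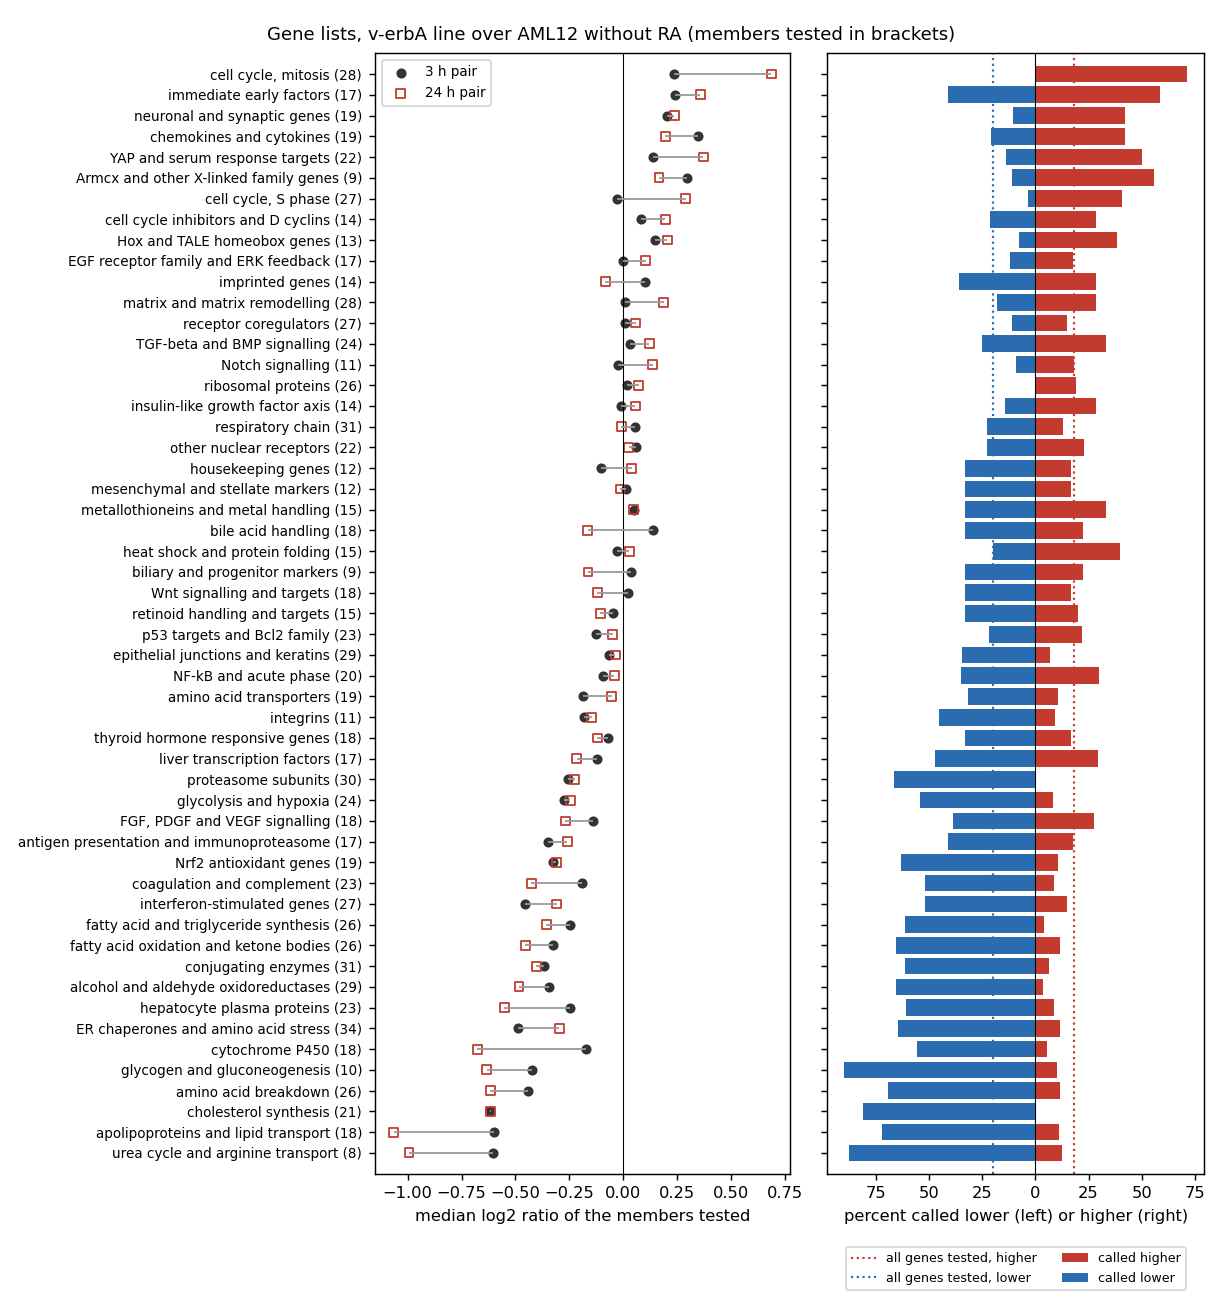
Gene lists with at least 8 members tested (number in brackets), ordered by median change. Left, median log2 ratio of the members in the 3 h pair (circles) and the 24 h pair (squares); right, percent of members called lower (blue, left) and higher (red, right), with dotted lines at the percent over all genes tested. Liver metabolism and secretion lists fill the lower part, and mitosis genes stand at the top with their 24 h median well above the 3 h median.

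Transcripts of many secreted hepatocyte products were lower in the v-erbA line, while the bright Alb and Ttr were not called. Of 23 plasma protein genes tested, 14 fell and 2 rose (median -0.40, with -0.25 at 3 h and -0.55 at 24 h); 8 fell without the AML12 control of 24 h and 9 without the v-erbA control of 3 h. Alb, serum albumin, was at 9964 and 11053 units in AML12 and 9364 and 10433 in the v-erbA line and was not called (-0.09 ± 0.05, adjusted p = 0.18), and Ttr, transthyretin, was at 10707 to 10841 units in the v-erbA line and 10727 to 10823 in AML12. Both lie near the top of the signal range, which reaches 12275 units. Besides Lrg1, Itih4 and Azgp1, Serpina1b and Serpina1c moved the opposite way. Serpina1b, an alpha-1-antitrypsin, rose from 779 and 1768 to 3115 and 5325 units, and Serpina1c from 207 and 688 to 620 and 1961; these paralogues are near identical and may share probes. Of 18 apolipoprotein and lipid transport genes, 13 fell and 2 rose (median -0.76), and in the fit over all 8 arrays 10 fell and 2 rose. Without the AML12 control of 3 h the median was -1.18; 8 fell without either control of 24 h, and 0 rose in 3 of the 4 fits that left out 1 array. Apoc1, an exchangeable apolipoprotein, fell from 2846 and 5136 to 409 and 772 units, and Apoh, beta-2-glycoprotein I, from 2782 and 6271 to 688 and 1334. Cd36, a fatty acid receptor, rose from 207 and 699 to 625 and 873 units. Of 23 coagulation and complement genes, 12 fell and 2 rose (median -0.34), and in the fit over all 8 arrays 8 fell and 2 rose. The median was -0.19 without the AML12 control of 24 h. It was -0.23 and -0.26 without the v-erbA controls of 3 h and 24 h. Kng1, kininogen, fell from 256 and 664 to 41.2 and 98.6 units and F2, prothrombin, from 210 and 403 to 66.2 and 87.7. F3, tissue factor, which starts coagulation and is not a plasma protein of hepatocytes, rose by 0.74 ± 0.11.

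Transcription factors of the liver were split. Of 17 tested, 8 fell and 5 rose. With chromosome medians removed 5 fell and 5 rose, without the v-erbA control of 3 h 3 and 3, without that of 24 h 4 and 2, and without the AML12 control of 24 h 5 and 4. Cebpa, a leucine zipper factor of differentiated hepatocytes, fell from 641 and 897 to 313 and 402 units, by 1.06 ± 0.11. Hnf4a, the nuclear receptor that organises hepatocyte expression, fell from 2651 and 2559 to 1932 and 1538 units, by 0.59 ± 0.07, and Atf5 fell by 0.68 ± 0.07. Zfp36l1, an mRNA decay factor, rose by 0.87 ± 0.08, Prox1, a homeobox factor of early liver, by 0.81 ± 0.11, and Foxa1 by 0.44 ± 0.08. Afp, the fetal plasma protein, rose from 173 and 104 to 238 and 230 units, by 0.71 ± 0.16. Krt19, a keratin of bile duct and progenitor cells, fell from 4098 and 3169 to 2088 and 1377 units, while Krt7 rose by 0.37 ± 0.12.

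Transcripts of nitrogen and carbohydrate metabolism fell more often than they rose. Of 26 genes of amino acid breakdown, 18 fell and 3 rose (median -0.53). After Kyat3, the largest falls were in Tdo2, tryptophan dioxygenase (190 and 536 units against 61.1 and 120), and Tat, tyrosine aminotransferase (179 and 374 against 70.1 and 77.3). Of 8 urea cycle and arginine transport genes, 7 fell and 1 rose (median -0.83), and 4 fell without the v-erbA control of 24 h. Cps1, which forms carbamoyl phosphate for the cycle, fell from 547 and 1882 to 203 and 377 units, and Glul, glutamine synthetase, from 2094 and 1673 to 1086 and 815. Slc7a1, another cationic amino acid transporter, was called higher by 0.25 ± 0.09, a call lost in the 8-array fit (adjusted p = 0.060, limma) and without the mean-variance trend (0.145). Of 10 glycogen and gluconeogenesis genes, 9 fell, among them Fbp1, fructose bisphosphatase (146 and 367 units against 70.9 and 44.7, at least 2.71-fold). Without the AML12 control of 24 h 5 of the 10 fell, and without either v-erbA array 3 did. The exception was Ppp1r3c, a glycogen-targeting phosphatase subunit, which rose from 63.8 and 132 to 189 and 279 units. Of 24 glycolysis and hypoxia genes, 13 fell and 2 rose, with Pdk1, which restrains pyruvate dehydrogenase, at 1043 and 1173 against 534 and 552 units and Slc2a1, the glucose transporter GLUT1, at 748 and 593 against 311 and 343. In that list 6 fell without the v-erbA control of 3 h, 8 without that of 24 h and 7 without the AML12 control of 24 h.

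On both arms of lipid synthesis, and in lipid oxidation, transcripts fell more often than they rose. Of 21 cholesterol synthesis genes, 17 fell and 0 rose, with a median of -0.64 over the fit and of -0.62 in each pair. Insig1, the sterol sensor partner, fell from 359 and 572 to 138 and 192 units, Fdft1, squalene synthase, from 1145 and 1312 to 411 and 631, and Cyp51, lanosterol demethylase, from 842 and 638 to 341 and 393. Between 13 and 17 of the 21 were called lower whichever untreated array was left out. Of 26 fatty acid and triglyceride synthesis genes, 16 fell and 1 rose; Scd1, stearoyl-CoA desaturase, fell from 1388 and 1662 to 418 and 397 units and Mlxipl, the glucose-sensing factor ChREBP, from 612 and 921 to 234 and 260. In that list 10 fell without the v-erbA control of 24 h. Of 26 fatty acid oxidation and ketone body genes, 17 fell and 3 rose; 11 fell without the AML12 control of 24 h or the v-erbA control of 3 h. Acaa2, a mitochondrial thiolase, fell from 2762 and 3853 to 1568 and 1417 units, while Cpt1a, the entry enzyme of mitochondrial oxidation, was called higher by 0.22 ± 0.06. The call of Cpt1a was lost without the mean-variance trend (adjusted p = 0.158, limma), and with chromosome medians removed the change was 0.035. Ppargc1a, a coactivator of oxidative metabolism, was under the pooled median in AML12 and at least 1.28-fold higher in the v-erbA line. Of 31 respiratory chain subunits, 4 rose and 7 fell, with a median of 0.03, and 2 to 8 fell with 1 array left out.

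Genes of foreign compound metabolism fell more often than they rose in each class examined. Of 18 cytochrome P450 genes tested, 10 fell and 1 rose, of 31 conjugating enzymes 19 fell and 2 rose, and of 29 alcohol and aldehyde oxidoreductases 19 fell and 1 rose. The P450 median was -0.17 at 3 h and -0.68 at 24 h. Cyp4f14 was at 498 and 1440 units in AML12 and 100 and 227 in the v-erbA line, and Cyp3a11, a main drug oxidase, at 355 and 867 against 69.0 and 135. Sult1d1, a sulfotransferase, fell from 656 and 1019 to 194 and 202 units, whereas Gstt2 and Gstt1, theta-class glutathione transferases, rose by 1.01 ± 0.09 and 0.72 ± 0.07. Aldh1l1, which oxidises formyltetrahydrofolate, fell from 1303 and 2315 to 396 and 611 units. Of 19 targets of the antioxidant factor Nrf2, 12 fell and 2 rose. Srxn1, sulfiredoxin, fell from 1007 and 723 to 451 and 399 units, and Sod1 from 4533 and 4182 to 2538 and 2485. Gpx3, the secreted glutathione peroxidase, rose from 79.9 and 80.4 to 321 and 428 units, a larger change than any fall in that list.

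Falls outnumbered rises among endoplasmic reticulum folding genes and among proteasome subunits. Of 34 chaperone and amino acid stress genes, 22 fell and 4 rose (median -0.40, with -0.49 at 3 h and -0.30 at 24 h). Sdf2l1, a chaperone cofactor, fell from 1059 and 1004 to 327 and 373 units, Trib3, a pseudokinase induced by stress, from 1037 and 1067 to 349 and 447, and Creld2 from 1402 and 911 to 632 and 411. The members that rose were Mthfd2, Atf6, Asns and Psat1; Mthfd2, Asns and Psat1 make one-carbon units, asparagine and serine. Of 30 proteasome subunits, 20 fell and 0 rose, and the median was -0.24, with -0.26 at 3 h and -0.22 at 24 h. The largest of these falls, in the base ATPases Psmc2 and Psmc3 and the core subunit Psma7, were 0.51 ± 0.06, 0.50 ± 0.07 and 0.39 ± 0.07. Between 12 and 17 of the 30 were called lower when 1 untreated array was left out, and with chromosome medians removed 20 were. Of 26 ribosomal protein genes, 5 rose and 0 fell, with a median of 0.04 (1 to 6 rose with 1 array left out), and of 12 housekeeping genes 2 rose and 4 fell.

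Growth factor systems held changes in both directions. In the insulin-like growth factor axis, 4 of 14 genes rose and 2 fell. Igf1, the hormone, rose from 302 and 188 to 695 and 672 units, and Igf1r, its receptor, from 273 and 311 to 567 and 629, while Igf2r fell as described. In the TGF-beta and BMP list, 8 of 24 rose and 6 fell. Tgfb2, a ligand, rose from 303 and 198 to 1079 and 1009 units, and Tgfbr3, the coreceptor that presents it, was at 21.2 and 23.2 against 145 and 142 units, at least 1.75-fold higher. Fst, which binds activins, was at least 1.46-fold higher. Tgfbr2, the signalling receptor, fell from 1446 and 1586 to 737 and 764 units, and the ligands Bmp4 and Inhbb fell by 1.54 ± 0.14 and 1.24 ± 0.16. In the FGF, PDGF and VEGF list, 5 of 18 rose and 7 fell. Fgfr3, a receptor, rose from 767 and 728 to 1951 and 2039 units, and Flt4, a receptor for lymphatic growth factors, fell from 459 and 497 to 105 and 105. Egfr, the receptor of the transforming growth factor alpha that AML12 carries, rose by 0.44 ± 0.08. In the Wnt list, 3 of 18 rose and 6 fell, with Ccn4 and Tcf7l2 higher by 1.29 ± 0.11 and 0.94 ± 0.10. The largest falls in that list were in Fzd8, at least 1.63-fold lower, and in Wnt10a and Tcf7l1, with -0.98 and -0.69. With 1 array left out, 4 to 9 of the TGF-beta and BMP list rose, 3 to 5 of the FGF, PDGF and VEGF list rose and 3 to 5 of the Wnt list fell.

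Immediate early factors changed in both directions, and more YAP targets rose than fell. Of 17 immediate early genes tested, 10 rose and 7 fell; with 1 untreated array left out, 4 to 10 rose and 3 to 6 fell. Fos and Atf3 were under the pooled median in AML12 and at 93.4 and 133, and 180 and 221 units, in the v-erbA line. Fosl1, the FOS-like protein FRA1, moved the other way, from 731 and 611 to 171 and 124 units, a fall by 2.05 ± 0.13. Jund fell by 0.57 ± 0.07 on its brightest probe set, but the mean of its probe sets gave 0.01. Of 22 YAP and serum response targets, 11 rose and 3 fell. After Ankrd1, the largest rises were in Ccn1, a matricellular protein, from 820 and 1014 to 2051 and 2473 units, and in Acta2, smooth muscle actin, from 21.2 and 103 to 66.7 and 195. Ccn2, the relative of Ccn1, fell by 0.31 ± 0.06. Leaving out 1 untreated array left 6 to 13 of the 22 higher.

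Matrix genes changed in both directions, and among integrins and junction genes falls outnumbered rises. Col4a5, a basement membrane collagen chain, rose from 301 and 460 to 722 and 1113 units, and Lama4 and Plod2 rose by 1.17 ± 0.20 and 1.17 ± 0.17; in the matrix list 8 of 28 rose and 5 fell. Of 11 integrins, 5 fell and 1 rose. Itga2, the collagen receptor subunit, was at 183 and 206 against 42.9 and 66.9 units, at least 2.29-fold lower, and Itgb6 rose by 0.91 ± 0.18. Of 29 junction and keratin genes, 10 fell and 2 rose. Cldn2, a pore-forming claudin, fell from 5781 and 4668 to 2062 and 1799 units, and Gjb1, the hepatocyte connexin 32, from 1311 and 1914 to 556 and 718. Mesenchymal markers did not rise as a list, with 2 of 12 higher and 4 lower. Dcn, decorin, was at least 1.68-fold higher in the v-erbA line, and Snai2 fell by 0.76 ± 0.08. With 1 array left out, 3 to 8 matrix genes rose and 3 to 5 fell, 5 to 10 junction and keratin genes fell and 0 to 4 rose, and 2 to 4 mesenchymal markers fell.

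Among interferon-stimulated and antigen presentation genes falls outnumbered rises, and among chemokines rises outnumbered falls. Of 27 interferon-stimulated genes, 14 fell and 4 rose (median -0.34). Ifitm3, which blocks viral entry, fell from 2654 and 2885 to 516 and 676 units. Ifit2 went the other way, from 114 and 91.1 to 277 and 306 units. Of 17 antigen presentation genes, 7 fell and 3 rose, with Psmb8, an immunoproteasome subunit, at 252 and 245 against 65.4 and 94.3 units. Cd1d1, which presents lipids, rose from 684 and 624 to 1431 and 1520. Of 19 chemokines and cytokines, 8 rose and 4 fell. Ccl20 rose from 232 and 1011 to 1076 and 2737 units, Ccl7 was at least 2.65-fold higher, and Cxcl14 was at least 1.76-fold lower. Of 15 metallothionein and metal handling genes, 5 rose and 5 fell, with a median of -0.02. Slc40a1, the iron exporter ferroportin, rose from 1143 and 696 to 3257 and 3106 units. The metallothioneins Mt1 and Mt2 fell by 0.64 ± 0.06 and 0.73 ± 0.06. Without the v-erbA control of 3 h 9 interferon-stimulated and 4 antigen presentation genes fell, and without that of 24 h 4 chemokines rose and 2 fell.

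Mitotic genes were higher in the v-erbA line, by an amount that depended on the arrays used. Of 28 mitosis genes tested, 20 rose and 0 fell, with a median of 0.23 at 3 h and 0.68 at 24 h. In the fit over all 8 arrays 10 rose and 0 fell. Ccnb2, a mitotic cyclin, was at 1168 and 378 units in AML12 and at 1773 and 895 in the v-erbA line, and Cenpf, a kinetochore protein, at 599 and 182 against 879 and 431. In both lines the 24 h signal was below the 3 h signal, and the AML12 control of 24 h was the lowest of the 4. Without that array the median was 0.15 and 1 of the 28 was called higher. Without the AML12 control of 3 h it was 0.79 with 24 called, and without either v-erbA array 0 or 1 was called. In the RA-treated arrays the median was 0.21 at 3 h and -0.18 at 24 h. Of 27 S phase genes, 11 rose and 1 fell, with medians of -0.03 at 3 h and 0.29 at 24 h. In the fit over all 8 arrays 5 rose and 0 fell, and without the AML12 control of 24 h the median was -0.08.

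Some genes that mark lineage or parental origin also separated the lines. Of 13 homeobox genes of the Hox and TALE groups tested, 5 rose and 1 fell; after Hoxb13 came Meis1, a partner of Hox proteins, at least 1.80-fold higher, and Hoxa3, from 95.4 and 170 to 220 and 332 units. Of 14 imprinted genes, 4 rose and 5 fell. Sgce, a paternally expressed sarcoglycan, rose from 162 and 191 to 746 and 1024 units, and Impact fell from 1052 and 902 to 415 and 454. Airn, the antisense RNA that silences the paternal copy of Igf2r, rose by 0.46 ± 0.11 on its brightest probe set, but the mean of its probe sets gave -0.24, so its direction is not settled. Of 19 neuronal and synaptic genes, 8 rose and 2 fell; Elavl2, an RNA-binding protein of neurons, was at 15.9 and 5.72 against 131 and 138 units, at least 1.66-fold higher. With 1 array left out, 2 to 4 imprinted genes rose and 3 to 5 fell, and 5 or 6 neuronal genes rose. On the X chromosome 7.67% of 339 genes were called at least 2-fold apart, 12 higher and 14 lower, beside 3.58% over all genes. X-linked Bex1 rose from 5900 and 6185 to 9835 and 10401 units.

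The ratios also followed the chromosome on which a gene lies. This was looked at after the values were seen. On chromosome 12, 39.8% of 394 genes were called higher and 7.61% lower, and on chromosome 19, 40.5% of 430 were higher and 11.2% lower. On chromosome 14, 4.85% of 392 genes were higher and 40.1% lower, with 6.40% and 33.9% on chromosome 2 (890 genes), 5.42% and 33.6% on chromosome 16 (369 genes) and 9.09% and 30.7% on chromosome 4 (704 genes). Median changes were 0.22 on chromosome 12 and 0.21 on chromosome 19, against -0.19 on chromosome 14, -0.14 on chromosomes 2 and 16 and -0.13 on chromosome 4. Of the 409 calls on chromosomes 12 and 19, 80.9% were higher, and of the 959 on chromosomes 2, 4, 14 and 16, 83.3% were lower. These 6 chromosomes hold 30.9% of all calls. Of the 11586 genes tested, 890, 704, 394, 392, 369 and 430 lie on chromosomes 2, 4, 12, 14, 16 and 19.

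The pattern was common to all 4 pairs of the lines and much smaller within a line. Over the 20 chromosomes, the medians of the 3 h and 24 h pairs had the same sign on 18 and correlated with r = 0.970, as a description of arrays that share probes and scaling. The sign of the mean of the 2 pairs was found on 19 chromosomes in the RA pair of 3 h and on 20 in that of 24 h. The chromosome medians spanned 0.398 at 3 h and 0.435 at 24 h, and 0.384 and 0.395 with RA. In contrasts within a line, of RA against none or of 24 h against 3 h, they spanned 0.0202 to 0.0908. Each array centred on its median kept the sign on 20 chromosomes and quantile normalization on 19.

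**Figure D4:**
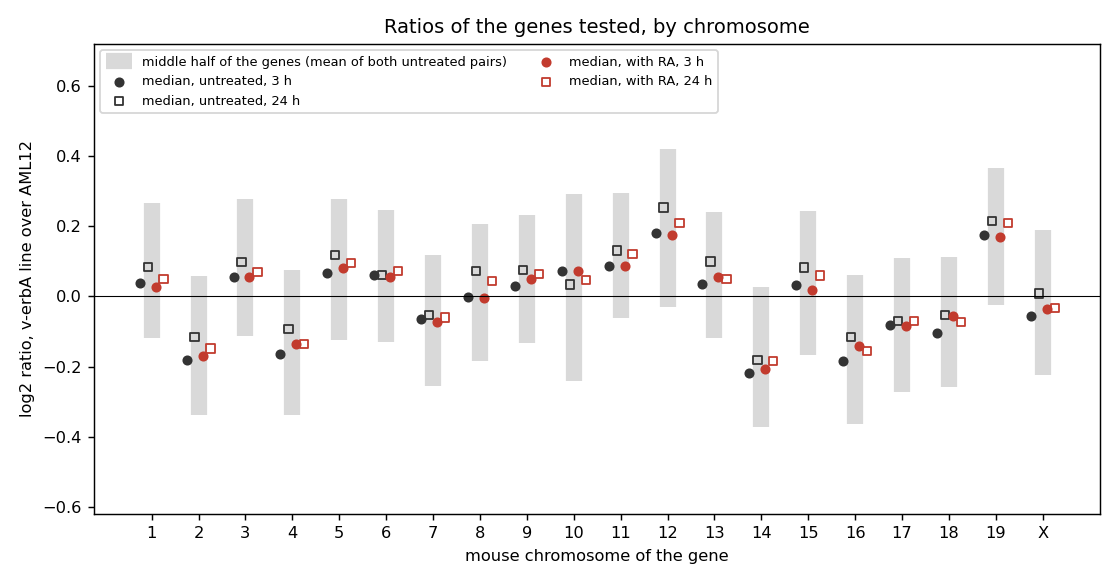
Median log2 ratio of the v-erbA line over AML12 by mouse chromosome, for the untreated pairs (dark) and the RA pairs (red) at 3 h (circles) and 24 h (squares), over grey bars for the 25th to 75th percentile of the genes tested. Chromosomes 12 and 19 lie above 0 and chromosomes 2, 4, 14 and 16 below 0 in all 4 pairs, and on every chromosome the spread among genes is wider than the shift.

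Windows of 50 neighbouring genes tested showed whether a shift ran the length of a chromosome. All 7 windows of chromosome 12 and all 8 of chromosome 19 had a median above 0, and 0 of 17 on chromosome 2, 0 of 14 on chromosome 4 and 0 of 7 on each of chromosomes 14 and 16 did. Chromosome 10 was divided: the first 4 windows in gene order had medians of -0.11 to -0.35 and the other 7 of 0.07 to 0.32. The fifth window was at 0.14 in the 3 h pair and at -0.01 in the 24 h pair. Chromosome 11 started with 3 windows at 0.30, 0.39 and 0.33 and went on at 0.01 to 0.21. DNA content was not measured in these data.

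**Figure D5:**
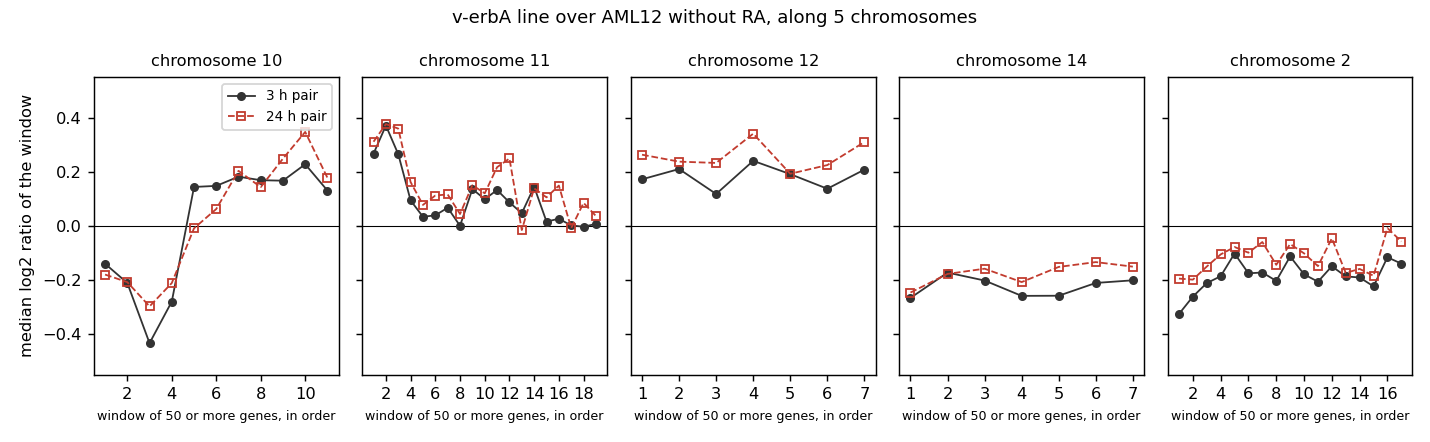
Median log2 ratio of consecutive windows of 50 or more tested genes, in gene order, on chromosomes 10, 11, 12, 14 and 2, in the 3 h pair (circles) and the 24 h pair (squares). In the mean of the pairs the shift keeps its sign along chromosomes 12, 14 and 2, passes from below to above 0 around the fifth window of chromosome 10 and is largest in the first 3 windows of chromosome 11.

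The shift bears on the small calls. When each gene's chromosome median was subtracted, 3353 genes were called, and 3002 of the 4432 calls stood in the same direction. Of calls under 1.41-fold 1335 of 2595 stood, of those between 1.41-fold and 2-fold 1257 of 1422, and of those at 2-fold or more 410 of 415. Gldc, Acot1 and Hif1a, called higher by 0.17, 0.22 and 0.20, turned to -0.0060, -0.0048 and -0.022. Of the 24 lists with a median of at least 0.2 in size, all 24 kept their sign, with a largest move of 0.21.

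Few line differences could be shown to depend on time. In a fit over all 8 arrays with a line by time term, limma called 5 of 11586 genes (0.0432%), with 1026 at an unadjusted p under 0.05. Cd8a, a T cell coreceptor chain, was at 38.6 units in AML12 and 38.2 in the v-erbA line at 3 h. At 24 h it was at 2707 and 610 units. Another probe set of Cd8a, above the pooled median on all 4 arrays, did not show the change, with ratios of -0.06 and 0.05. Thsd4 was at 155 and 137 units at 3 h and at 116 and 1.07 at 24 h. The term averages the untreated and RA-treated pairs, and its spread also rests on the RA arrays. Gnmt and Bhmt, methyltransferases of the methionine cycle, had the widest gaps between pairs. Gnmt was at 420 units in AML12 and 212 in the v-erbA line at 3 h, and at 1482 and 50.5 at 24 h, ratios of -0.92 and -4.41. Bhmt was at 221 and 135 at 3 h and at 801 and 24.5 at 24 h, ratios of -0.64 and -4.21. Their line by time terms did not pass (adjusted p = 0.063 and 0.34, limma).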

How the data were processed

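The authors deposited a linear signal intensity for each probe set on each array (0 to 12275); how probes were summarized and arrays scaled is not given in the sources used here. Total RNA (Trizol, then an RNeasy column) was biotin-labelled for Affymetrix arrays, per the labels' protocols. Of 45037 probe sets, 1 lacked values and was left out, 34944 named 1 gene, 932 several and 9160 none. Gene identifiers of 34740 matched the RefSeq table of GRCm38.p6 (204 did not), which gave chromosome and gene order. A gene with several probe sets was represented by its brightest over 8 arrays. Signals were taken as log2(signal + 19.9), the offset being the 20th percentile, and fitted in R 4.3.3 with limma 3.58.1 (line and time, mean-variance trend). Median signals of the 4 arrays ran from 72.4 to 76.1 units; their number limits the precision. The fit was also run on simulated arrays with known changes and independent noise, which does not show how the real arrays scatter. Figures used Python 3.11.15 and matplotlib 3.10.9.

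The genes and lists were chosen with earlier results of these data known. Named are the 15 highest and 15 lowest calls with 1 direction in both pairs, the 5 and 5 widest gaps between pairs, the time calls, up to 3 and 3 called members of each list, and fixed receptor, erythroid and liver genes. The chromosomes, Mt1 and Psat1 were singled out after values were seen. No set test was run.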

Additional observations from a re-analysis of the deposited data

Results flagged for a closer look

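In 5 genes the difference between the lines differed between 3 h and 24 h: the line by time term of the 8-array fit passed (limma, adjusted p under 0.05). The term, the line difference at 24 h minus that at 3 h, was -2.357 for Cd8a, -2.264 for Thsd4 and -1.867 for Myl2. It was -1.248 for Spon2 and 1.938 for 1700021F07Rik. These values average the untreated and RA-treated pairs. The untreated log2 ratios at 3 h and 24 h were -0.01 and -2.11 for Cd8a and -0.15 and -2.69 for Thsd4. They were 0.37 and -1.47 for Myl2, 0.85 and -0.55 for Spon2 and -0.47 and 1.69 for 1700021F07Rik. Myl2, a cardiac myosin light chain, was at 34.3 units at 3 h and 454 at 24 h in AML12 and at 50.1 and 151 in the v-erbA line, and Spon2 at 219 and 1090 and at 410 and 737 units. 1700021F07Rik went from 57.2 to 134 units in AML12 and from 35.9 to 476 in the v-erbA line. Another bright probe set of Cd8a gave ratios of -0.06 at 3 h and 0.05 at 24 h.

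For 6 further genes the untreated pairs had opposite signs, which does not show that the line difference changed with time; it was not tested on those 4 arrays, and the 8-array terms did not pass: the 24 h ratio minus the 3 h ratio was 2.069 for Tubb2a-ps2, 1.855 for Celsr1, 1.509 for Pou2f2, 1.398 for Rcc1, -2.401 for Ndrg2 and -2.31 for Rusc2. Pou2f2 was at 1193 and 66.6 units in AML12 and at 470 and 79.5 in the v-erbA line. Ndrg2, a gene of differentiated cells, was at 199 and 251 units in AML12 and at 220 and 36.1 in the v-erbA line.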

How the results depend on the processing

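The count of 4432 calls was 99 without the time term, 2730 without the mean-variance trend, 8311 of 23794 with every probe set tested singly, and 2054 to 4300 in 8-array fits that left out 1 untreated array. The 415 calls of at least 2-fold became 269 with the offset at the pooled median, 240 with all 4 arrays required above it, 79 without the time term and 715 with every probe set singly. With that offset the 3 h pair gave 237 genes at least 2-fold apart in place of 406, and the 24 h pair 370 in place of 612. The line by time count of 5 was 9 with arrays centred on their medians and 0 to 93 with 1 untreated array left out (93 without the AML12 control of 24 h, 0 without the v-erbA control of 24 h). The share of higher calls was 47.6%, 41.2% with centred arrays and 52.2% after quantile normalization. Of the 30 largest changes, all 30 stayed called under each of the other settings that kept them, except 16 without the time term and 29 without the AML12 control of 24 h or the v-erbA control of 3 h. The direction turned with chromosome medians removed for Gldc (-0.0060), Acot1 (-0.0048) and Hif1a (-0.022), with the mean of all probe sets for Jund (0.012), Spred2 (0.038) and Airn (-0.24), and with 1 array left out for 1700021F07Rik (-0.15 to 1.37), Pou2f2 (-1.25 to 0.14) and Myl2 (-1.31 to 0.20). The causes were not tested. Calls lost in at least 1 fit that left out an array included those of Thra, Gnmt, Bhmt, Cd8a, Thsd4, Car2, Dhrs3, Tat, Fbp1, Ppp1r3c, Serpina1c, Cd36, Afp, Foxa1, Krt7, Atf6, Fos, Ccn2, Lama4, Ccnb2 and Cenpf. No analysis paired by replicate number was possible, because each group has 1 array and the numbers pair nothing. The fit itself pairs the lines by time, and its count without that term was 99.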
